A study of Ambystoma mexicanum with 2 samples.

Results

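The microRNAs miR-199 and miR-214 were followed in small RNA from the tail of the Mexican axolotl. They were taken as all mirBase entries, of any species, whose family label in the deposited table is miR-199 or miR-214 followed by at most 1 letter. This rule found 116 of the 9277 entries with reads, under 5 of the 4563 labels: miR-199 (16 entries), miR-199a (48), miR-199b (15), miR-199c (4) and miR-214 (33). The control library was made from uninjured tail tissue that had never regenerated, and the blastema library from tail tissue at 3 days post injury. Tissue from 20 mature axolotls was pooled, and it is not stated whether this number is per library. The deposited counts add up to 12613931 reads in the control and 9952885 reads in the blastema. With 1 library per condition there are no replicates, and no test of the condition was made. Intervals given here are 95% intervals that cover counting error only, since copies made by PCR are not independent molecules.

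miR-199 and miR-214 are known in other vertebrates as microRNAs of mesenchymal tissue, the loose connective tissue that includes fibroblasts and the precursors of cartilage and bone. In mammals, miR-214 and a copy of miR-199a are cut from a single long noncoding transcript that runs antisense within an intron of the Dynamin 3 gene. Each microRNA hairpin has a 5p and a 3p arm, either of which can be loaded into the silencing complex, and target choice depends largely on the seed, bases 2 to 8 of the loaded strand. For miR-199 both arms are known to be abundant in other vertebrates.

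The sequences of the mirBase entries themselves were not used here, and the axolotl sequences below are reads that did not map to mirBase and that the deposited tables list in full. They are the most common sequences of the unmapped families Amex-miR-pn118 and Amex-miR-pn651, whose listed partial homologies include miR-199 and miR-214. Both are shown because they correspond to the 3p strand, the arm with most reads of these microRNAs, with the seed in capitals.
Amex-miR-pn118, resembling miR-199: aCAGTAGTctgcacattggttaa
Amex-miR-pn651, resembling miR-214: aCAGCAGGcacagacaggcagta
Both are 23 bases long. Their seeds differ at 2 of the 7 positions, by the substitutions T5C and T8G from miR-199 to miR-214, counted from 1 at the 5′ end.

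miR-199 was among the most abundant microRNAs of both tissues, while miR-214 had far fewer reads. Summed over its 4 labels, miR-199 had 455488 control and 955287 blastema reads, shares of 3.61% (95% Wilson interval 3.60 to 3.62) and 9.60% (9.58 to 9.62). miR-214 had 3274 control and 6210 blastema reads, shares of 0.0260% (0.0251 to 0.0269) and 0.0624% (0.0609 to 0.0640). As a share of all reads, both microRNAs were thus higher in the blastema beyond the counting error, 2.66-fold for miR-199 and 2.40-fold for miR-214, a direction that turned under edgeR's TMM scaling. In pooled tissue, a larger share of the cells that express a microRNA and more of it per cell cannot be told apart.

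Among the labels of miR-199, most reads were given to miR-199a, which had 279622 in the uninjured tail and 599913 in the blastema. Among all labels it ranked 8 in the former and 3 in the latter. miR-199b had 111182 and 237455 reads and ranked 13 and 9. The label miR-199 without a letter had 53639 and 99552 reads, at ranks 14 and 16. miR-199c had 11045 and 18367 reads, at ranks 30 and 51. The label miR-214 stood at rank 58 in the control and 81 in the blastema, so that its rank fell although its share was larger. The order of the 5 labels by share was the same in both libraries, and the intervals of neighbours in this order did not overlap. These totals and ranks also depend on the number of entries under each label. Per entry, miR-199b had more reads than miR-199a, with 7412 against 5825 in the control and 15830 against 12498 in the blastema.

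**Figure D1:**
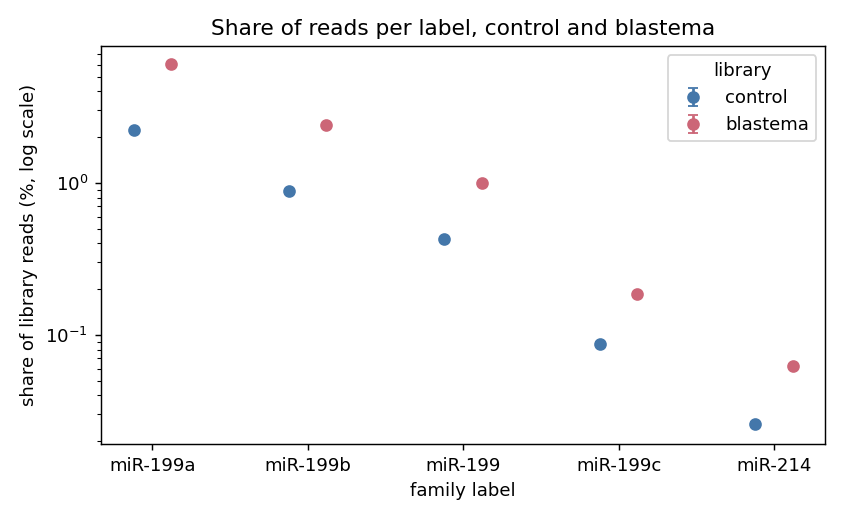
Share of all reads of the deposited tables (percent, log scale) for each of the 5 labels, in the control (blue) and blastema (red) libraries. Points are single libraries and bars, mostly smaller than the points, are 95% Wilson intervals. Every blastema point lies above its control point, from 2.11-fold for miR-199c to 2.72-fold for miR-199a, a direction that turned for each label under TMM scaling.

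The log2 ratio of blastema over control, computed on shares with 0.5 read added to each count, was 1.44 for miR-199a (interval 1.44 to 1.45) and 1.44 for miR-199b (1.43 to 1.45). It was 1.23 for the label miR-199 (1.22 to 1.25), 1.27 for miR-214 (1.20 to 1.33) and 1.08 for miR-199c (1.04 to 1.11). The ratios of miR-199a and miR-199b were within the counting error of each other, their intervals overlapping, and both were above those of the other 3 labels. All 5 labels were at least 2-fold higher in the blastema. This was also true of 84.3% of the 3090 labels with 10 reads or more in the 2 libraries, while 1.84% were at least 2-fold lower, so that 5 of 5 is close to the background. Among the 197 labels with 1000 reads or more, called abundant here, 82.7% had 2 times the share or more in the blastema and 6.6% had 2 times the share or more in the control. The ratio of 28.4% of the abundant labels was below that of miR-199 as a whole and that of 23.4% was below the ratio of miR-214. The median of these abundant labels was 2.08, with quartiles of 1.34 and 3.08. The ratios of all 5 members were thus below that of the median abundant label.

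The direction of these ratios depended on the total against which reads were counted. MicroRNAs of muscle (miR-1, miR-206, miR-499, miR-133 and miR-208, with their lettered copies) took 67.4% of all control reads against 14.3% in the blastema. These are reads mapped to mirBase, and once they were removed from the total, every log2 ratio shifted by -1.39. Unmapped reads that resemble muscle microRNAs, such as those of Amex-miR-pn515, which resembles miR-1b, stayed in this total. The effect of removing them too was not tested. Without the mapped muscle reads, the log2 ratio was 0.016 for miR-199 as a whole (0.011 to 0.021) and -0.13 for miR-214 (-0.19 to -0.07). With edgeR's TMM factors, which align the bulk of the labels and families between the libraries, every log2 ratio shifted by -2.14, to -0.73 for miR-199 and -0.87 for miR-214. In each scaling tried, the 5 labels lay below the median of the abundant labels. Scalings shift all labels by the same amount, so this order within the library is not affected by them.

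**Figure D2:**
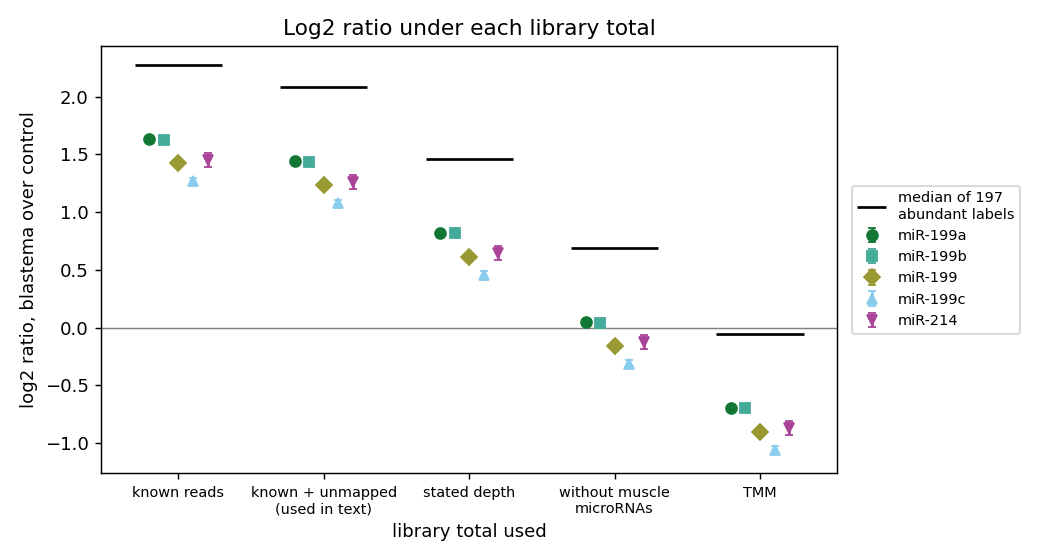
Log2 ratio of blastema over control for the 5 labels under 5 library totals, with bars for the 95% counting-error interval and black lines for the median of the 197 labels with at least 1000 reads. The labels lie above 0 with the first 3 totals, near 0 without the muscle microRNAs and below 0 with TMM, and they lie below the median each time.

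Within miR-199, the reads of single entries fell into narrow bands. Of the 83 entries, 19 had between 5325 and 5611 reads in the control and between 8753 and 9215 in the blastema. These 19 included entries as far apart as zebrafish dre-miR-199-3p, with 5553 and 9128 reads, and opossum mdo-miR-199b-3p, with 5509 and 9213. Another 12 had between 16669 and 19841 control reads and between 35979 and 41708 blastema reads, such as human hsa-miR-199b-3p with 16913 and 36970. A further 4 entries of miR-199a, those of pol, mml, eca and ppy, had between 24704 and 25148 control reads and between 57665 and 59417 blastema reads. The chimpanzee entry ptr-miR-199b stood alone at the top, with 32936 and 80008 reads. The sea squirt entry cin-miR-199-3p, with 7339 and 15756 reads, lay between the bands, and the remaining 6 entries named -3p lay below them. Among these was dre-miR-199-3-3p of the zebrafish with 1385 and 1197 reads, the 3p entry with the smallest log2 ratio, 0.13 (0.02 to 0.24). These ranges were set after the counts were seen.

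Entries of the band from 5325 control reads carried nearly the same number of reads whichever label they had. Over its 19 entries, which come from all 4 labels of miR-199, the variance over the mean was 1.32 for control and 2.204 for blastema reads. For counts that vary by sampling alone this value is near 1. It was 44.3 and 66.8 over the 12 entries of the next band. Of these, mmu-miR-199b-3p lay apart with 19841 and 41708 reads, while no other had more than 17104 control or 36970 blastema reads. The value without this entry was not computed. Over the 4 entries of the band from 24704 reads, all of miR-199a, the variance over the mean was 1.43 and 9.86. The total of a label thus depended on how many entries of each band it holds. miR-199a holds 12 of the 17 entries above 16000 control reads, miR-199b 4, the label miR-199 1 and miR-199c 0. The treatment of reads matching several entries is not given in the sources used here, and whether the 4 labels stand for separate axolotl genes was not tested.

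The bands also differed in their ratios. In log2 of blastema over control, the ratio was 1.06 (1.05 to 1.07) for the band from 5325 control reads and 1.45 (1.44 to 1.46) for the band from 16669 reads. It was 1.57 (1.56 to 1.58) for the band from 24704 reads and 1.62 (1.60 to 1.64) for ptr-miR-199b. The second band exceeded the first by 0.39 (0.38 to 0.41) and the third exceeded the second by 0.12 (0.11 to 0.14), both beyond the counting error. miR-199c, with the lowest ratio of the labels, has all of its 3p reads in the first band.

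**Figure D3:**
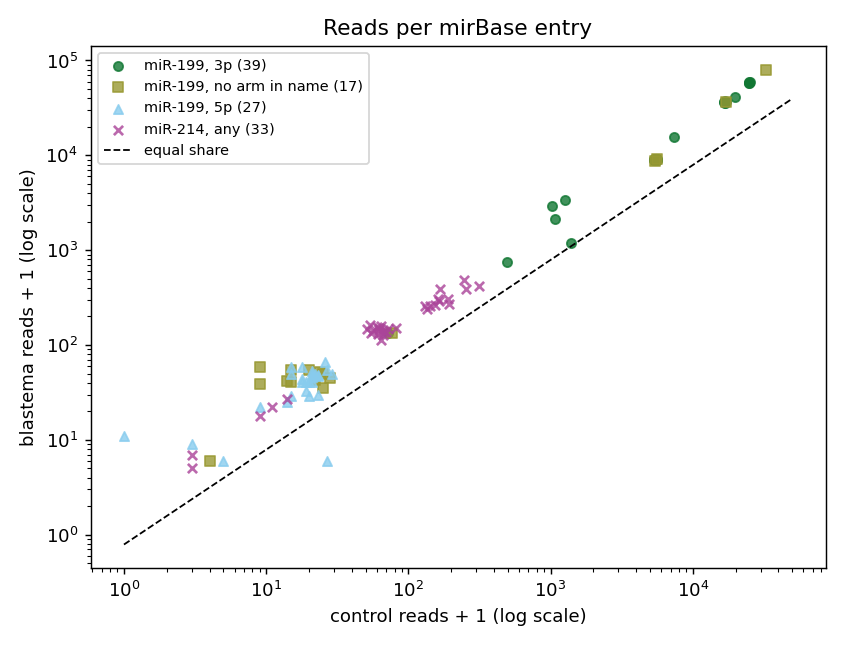
Reads plus 1 of each of the 116 entries in the control and blastema libraries, on log axes, by microRNA and by the arm in the entry name. The dashed line marks equal shares. The 3p entries of miR-199 form clusters from 5325 control reads upward, while its 5p entries have at most 28 control reads and 66 blastema reads.

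Among the mapped reads of miR-199 with a named arm, almost all were of the 3p arm. The 39 entries named -3p had 393684 control reads and 818915 blastema reads. The 27 entries named -5p had 466 and 1011. As a share of the reads with a named arm, the 5p arm held 0.118% (0.108 to 0.129) in the uninjured tail and 0.123% (0.116 to 0.131) in the blastema. No 5p entry had more than 28 control reads or 66 blastema reads, and the highest in the blastema was rat rno-miR-199a-5p, with 25 and 66. The 3p entries ran from 71 to 25148 control reads, and 1 of them, chicken gga-miR-199-3p with 71 and 133, was below 100.

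Between entries with a named arm, summed over the 4 labels, the balance of the arms differed between the tissues by less than the counting error. The log2 of 5p over 3p reads, which needs no library total, was -9.72 (-9.85 to -9.59) in the uninjured tail and -9.66 (-9.75 to -9.57) in the blastema. The difference, blastema minus control, was 0.06, with an interval of -0.10 to 0.22. For the label miR-199 alone it was 0.41 (0.06 to 0.77), which excludes 0, and for the other 3 labels the interval included 0. Both arms had a larger share of all reads in the blastema, with a log2 ratio of 1.46 for 5p (1.30 to 1.62) and 1.40 for 3p (1.39 to 1.40).

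Entries with no arm in their name had 61338 control reads and 135361 blastema reads. Of these 17 entries, 13 had at most 76 control reads, such as gorilla ggo-miR-199a with 23 control and 51 blastema reads. The other 4 had counts as high as 3p entries: dog cfa-miR-199 and Tasmanian devil sha-miR-199a in the band from 5325 control reads, efu-miR-199 with 17100 and, above all 3p entries, ptr-miR-199b with 32936. Counting the 17 entries as 5p gave a log2 of 5p over 3p of -2.67 for control and -2.59 for blastema reads, a difference of 0.085 (0.070 to 0.0999) that excludes 0. The 3p arm remained the more abundant one with them on either side.

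A strong excess of 1 arm was common in these libraries. Of 90 labels with reads on both named arms and 1000 reads or more on the pair, 5 of them the members, the rarer arm held a median of 1.90% in the uninjured tail and 2.92% in the blastema. A share smaller than the 5p share of miR-199 was found for 18 of the 90 labels in the control library and for 14 in the blastema library. These counts include labels of miR-199 itself. They are miR-199b in both libraries, at 0.0128% and 0.0184%, and miR-199a in the blastema, at 0.122%. The arm compared here is that of the entry a read was mapped to, allowing 2 mismatches, and an axolotl 5p strand that differs more from all mirBase entries would not be counted.

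The reads of miR-214 were spread thinly over its 33 entries, which ran from 2 to 314 reads in the control and from 4 to 483 in the blastema. The salmon entry ssa-miR-214-3p had the most over both libraries, with 314 and 416, followed by cattle bta-miR-214 with 246 and 483 and aja-miR-214 with 254 and 389. Only 1 entry is named as the 5p arm, mml-miR-214-5p of the rhesus macaque, and it had 2 control reads and 4 blastema reads. The 11 entries named -3p had 1304 and 2270 reads, a log2 ratio of 1.14 (1.04 to 1.24), and the 21 with no arm in the name had 1968 and 3936, a log2 ratio of 1.34 (1.264 to 1.42). All 33 entries had a larger share of all reads in the blastema. The same held for 82 of the 83 entries of miR-199, the exception being Chinese hamster cgr-miR-199a-5p, with 26 control reads and 5 blastema reads. Of all 9277 entries, 90.6% had a larger share of all reads in the blastema. Entries of different species may take reads of the same axolotl strand, so these counts of entries are not counts of replicates. The direction turned with the total, since without the muscle microRNAs 13 of the 33 entries of miR-214 and 43 of the 83 of miR-199 were above 0, and with TMM 0 and 5 were.

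Within each library miR-199 outnumbered miR-214 by 2 orders of magnitude. The ratio of their reads was 139 in the uninjured tail and 154 in the blastema, on the log2 scale 7.12 (7.07 to 7.17) and 7.27 (7.23 to 7.30). This ratio also needs no library total. It was larger in the blastema by 0.15 on the log2 scale (0.08 to 0.21). Between the named 3p arms alone the difference was 0.26 (0.16 to 0.36). Both differences exceed the counting error. With only the entry with the most reads of each microRNA, the difference was 0.88 (0.66 to 1.09). The number of entries in mirBase may also enter this ratio, since 83 entries could collect reads of miR-199 and 33 those of miR-214. Whether it does depends on how reads matching several entries were counted, which is not given, and was not tested.

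The reads that did not map to mirBase held further forms of the 3p strand. An exact search for bases 2 to 20 of the Amex-miR-pn118 sequence found 67 unmapped sequences, with 29828 control reads and 58756 blastema reads. The 4 most common are shown here, with the seed of each strand in capitals, because they differ at their ends.
Start at base 1, ending in AA: aCAGTAGTctgcacattggttaa
Start at base 1, ending in AT: aCAGTAGTctgcacattggttat
Start at base 2, ending in AA: cAGTAGTCtgcacattggttaa
Start at base 2, ending in AT: cAGTAGTCtgcacattggttat
The first had 18964 control and 41708 blastema reads, and the second 4904 and 9382. The strands that start at base 2, and therefore carry a seed shifted by 1 base, were rarer, with 2574 and 4076 reads for the third and 732 and 816 for the fourth.

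The proportions of these forms differed between the libraries. Counts of unmapped sequences are all even numbers, unlike those of the mirBase entries, so the intervals for unmapped sequences were made with each count divided by 2. Strands starting at base 1 made up 86.5% (85.9 to 87.0) of the control reads of these 67 sequences and 90.5% (90.2 to 90.9) of their blastema reads. Those starting at base 2 made up 12.6% (12.1 to 13.1) and 9.34% (9.02 to 9.68). Among strands that start at base 1, the end TAA after base 20 held 73.5% in the control (72.7 to 74.3) and 78.4% in the blastema (77.9 to 78.9). The end TAT held 19.01% (18.3 to 19.7) and 17.6% (17.2 to 18.1). The ends TTA and TTT held 1.82% and 1.80% in the control and 0.726% and 0.756% in the blastema. Among these unmapped reads, strands starting at base 1 and, of those, strands ending in TAA were thus a larger part in the blastema, beyond the counting error. The paper states that reads of 20 to 22 bases were mapped, and the most common form here has 23. Reads that mapped to mirBase are not part of these percentages, and their forms were not examined.

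For miR-214 the same search with Amex-miR-pn651 found 10 sequences, with 124 control reads and 298 blastema reads. All of them started at base 1. The 3 most common differ in their last bases.
Ending in GTA: aCAGCAGGcacagacaggcagta
Ending in GTT: aCAGCAGGcacagacaggcagtt
Ending in GAA: aCAGCAGGcacagacaggcagaa
They had 30, 24 and 22 reads in the control and 146, 62 and 30 in the blastema. The form ending in GTA held 24.2% of these reads in the control (15.2 to 36.2) and 49.0% in the blastema (41.1 to 56.9), and these intervals do not overlap.

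Among the 7785 families of unmapped sequences, 111 list a partial homology to miR-199 and 3 to miR-214. The 111 families hold 1231 sequences, with 47504 control and 75048 blastema reads and a log2 ratio of 1.002 (0.978 to 1.03). Of the mapped and these unmapped reads of miR-199 together, they are 9.44% in the uninjured tail and 7.28% in the blastema. These percentages use the unmapped counts as deposited, all even, and would be lower with those counts halved. The 3 families resembling miR-214 had 260 and 386 reads, a log2 ratio of 0.91 (0.59 to 1.23). These are Amex-miR-pn651, with 126 and 300 reads, Amex-miR-pn664, with 70 and 58, and Amex-miR-pn650, with 64 and 28.

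The sequences listed as the most common of the 3 largest families resembling miR-199 are end variants of the kind described above. These families also hold other sequences, so their ratios are not those of the end variants alone. Amex-miR-pn118 holds 149 sequences with 26670 control and 57064 blastema reads, a log2 ratio of 1.44 (1.41 to 1.47). Amex-miR-pn990, whose listed sequence starts at base 2, holds 61 sequences with 4094 and 6036 reads and a log2 ratio of 0.90 (0.82 to 0.98). Amex-miR-pn636, whose listed sequence has a T-rich end, had 1338 and 970 reads and a log2 ratio of -0.12 (-0.29 to 0.05), an interval that includes 0.

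The smaller families moved apart. Of the 111, 53 were at least 2-fold higher in the blastema, 37 at least 2-fold lower and 21 between. All 111 have at least 10 reads over both libraries. Of all 6846 unmapped families with that many reads, the blastema share was 2 times the control share or more for 75.1%, and 16.3% were at least 2-fold lower. The median log2 ratio of the 111 was 0.90, also with families without reads in 1 library placed at 3 counts. There were 6 families with no control read, of which Amex-miR-pn6100 had the most blastema reads, 102, a share at least 43.1-fold higher against 3 counts in the control, or 21.5-fold once its reads are halved. There were 2 with no blastema read, Amex-miR-pn2562 with 206 control reads and Amex-miR-pn661 with 84. The share of Amex-miR-pn2562 in the blastema was at least 54.2-fold lower, or 27.1-fold once its reads are halved. The paper states that unmapped sequences had to pass a minimum count in either sample. A family without reads in 1 library could therefore be listed only through its reads in the other. The effect of this selection on these bounds and on the spread of the small families was not tested.

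**Figure D4:**
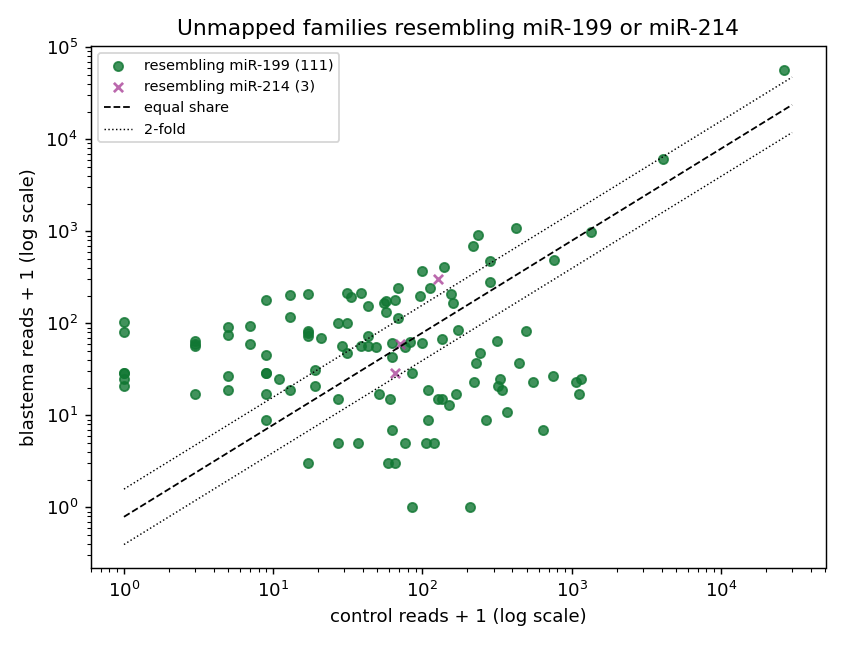
Reads plus 1 of the 111 unmapped families resembling miR-199 and the 3 resembling miR-214, in the control and blastema libraries, on log axes. The dashed line marks equal shares and the dotted lines a 2-fold difference. The largest families lie near the lines, while many smaller families lie far to either side.

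The families on either side differ from the parent strand by different kinds of substitution. The sequences below are listed by the authors as the most common of families with opposite changes. The sequence listed for Amex-miR-pn1251 does not have the most reads of the 18 in its family. Bases that differ from Amex-miR-pn118 are in capitals.
Amex-miR-pn855: CcCgtagtctgcacCttggtta
Amex-miR-pn2646: CcCgtCgtctgcacattggtta
Amex-miR-pn1251: aGagtagtAtgcacGttggtta
Amex-miR-pn667: acagGagGctgcacattggGta
Amex-miR-pn112: acagtagGctgcaAattggGta
The sequence of Amex-miR-pn855 carries A1C, A3C and A15C and had 100 control and 10 blastema reads itself, of 1068 and 22 in its family. That of Amex-miR-pn2646 carries A1C, A3C and A6C, and its family had 644 and 6 reads. That of Amex-miR-pn1251 carries C2G, C9A and A15G and had 30 and 6 reads of the family's 1124 and 16. Nearly all reads of these 3 families came from the control library. The sequence of Amex-miR-pn667 carries T5G, T8G and T20G and had 302 and 1040 reads of the family's 420 and 1092. That of Amex-miR-pn112, with T8G, C14A and T20G, had 10 and 168 of 234 and 914. Positions are counted from 1 at the 5′ end of Amex-miR-pn118.

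The same split ran through the family list. Families were sorted by the first 20 bases of the sequence listed as their most common, whatever its end. This sequence can hold few of its family's reads, as in Amex-miR-pn1251 above. The kind therefore need not describe most reads of a family. There were 13 families whose listed sequence differs on these bases from the parent by A-to-C changes alone. Of these 13, 12 were at least 2-fold lower in the blastema and 1 at least 2-fold higher. Together they had 6366 control reads and 780 blastema reads. The exception was Amex-miR-pn663, with the single change A6C and 284 and 472 reads. Of the 11 families with T-to-G changes alone on these bases, 10 were at least 2-fold higher, 0 at least 2-fold lower and 1 between, with 1038 and 3010 reads together. Of the 6846 unmapped families described above, 75.1% passed the 2-fold limit upward in the blastema and 16.3% downward. The count of T-to-G families is thus near this background, while that of A-to-C families is far from it. The median log2 ratio was -4.21 for the A-to-C families, or -4.31 with a count of 0 set to 3, and 2.00 for the T-to-G families. The TMM shift of -2.14 applies to both medians and leaves the distance between them as it is.

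Counted over single sequences, 1003 members of the 111 families differ from the parent at 1 to 6 of the first 20 bases, with 16180 control reads and 14656 blastema reads. Reads that mapped to mirBase, with up to 2 mismatches, are not among these sequences, so the percentages here describe unmapped reads only. Weighted by reads, A-to-C changes made up 40.3% of all substitutions in these control reads and 4.08% in these blastema reads. T-to-G changes made up 10.6% in the former and 51.9% in the latter. C-to-G changes were also more common in the control, with 14.4% and 2.47%, while C-to-A changes made up 15.9% and 17.1%. By position, the most common changes in the control were A1C, in 28.9% of these reads, C9A in 23.9% and A13C in 22.5%. In the blastema they were T8G in 36.2%, T5G in 34.0% and T20G in 33.8%. T5G and T8G lie in the seed.

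This split was not limited to miR-199. The same count was made, over all unmapped sequences, around the most common sequence of 6 other families with a listed homology, each such sequence having at least 5000 reads and resembling neither miR-199 nor another of the 6. The share of A-to-C changes was higher in the control around 6 of 6, at 9.39% to 54.0% against 1.75% to 7.41% in the blastema. The share of T-to-G changes was higher in the blastema around 6 of 6, at 2.10% to 21.9% and 2.37% to 33.9%. The split was smallest around Amex-miR-pn906, which resembles miR-7977, with 9.39% and 7.41% of A-to-C and 2.10% and 2.37% of T-to-G changes. No intervals were made for these shares. For Amex-miR-pn165, which resembles the cartilage microRNA miR-140, A-to-C changes made up 54.0% and 5.22%, and T-to-G changes 3.52% and 22.1%. Counted in this way, miR-199 had 44.6% and 3.92% of A-to-C and 7.50% and 45.3% of T-to-G changes. The kind of substitution therefore moved with the library, and its part in the changes of the variant families was not tested.

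Of the 111 families, 4 do not resemble the 3p strand. Amex-miR-pn89, Amex-miR-pn314, Amex-miR-pn3809 and Amex-miR-pn4465 list a homology to miR-199a and share a stretch that is absent from Amex-miR-pn118, shown in capitals in the most abundant of them.
Amex-miR-pn89: GCGAAAGCGAGTCTGAACAgggc
They had 56, 26, 8 and 4 reads in the control and 174, 100, 28 and 18 in the blastema. Their relation to the 5p strand was not examined.

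Other microRNAs known from mesenchyme, fibroblasts and cartilage were also higher in the blastema. The list held miR-140 and miR-455 of cartilage, miR-143 and miR-145 of smooth muscle and fibroblasts, the miR-29 family, which represses collagen genes, miR-152 and miR-22. All 14 of its labels with 10 reads or more, of 16, were at least 2-fold higher in the blastema, against 84.3% of all labels. Their median log2 ratio was 2.26, or 2.28 with the 1 label at 0 in the control, miR-29, set to 3 counts. The lowest was 1.53 for miR-455, and each of them was above the ratio of every member label. The interval of miR-455 (1.39 to 1.68) included the ratio of miR-199a, 1.44, as did those of some labels with few reads, such as miR-152 (1.28 to 2.92). With TMM 8 of the 14 stayed above 0, and without the muscle microRNAs in the total 14 of 14 did. Several of the 14 are lettered copies within the miR-29 family, and labels of the same family may share reads. miR-140, the most abundant, had 195894 control reads and 508891 blastema reads, a log2 ratio of 1.72 (1.71 to 1.73). miR-143 had 1714 and 5689 reads and a log2 ratio of 2.07 (1.99 to 2.15), and miR-29c had 1416 and 9452 reads and 3.08 (3.00 to 3.16).

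Markers of other cell types differed widely between the libraries. All 14 labels of skeletal muscle were at least 2-fold lower in the blastema, with the shares of reads given above. All 13 epithelial labels, of the miR-200 family, miR-203 and miR-205, were at least 2-fold higher, with a summed share of 0.221% and 2.43%. All 6 leukocyte labels were at least 2-fold higher, with 0.0256% and 0.260%, among them miR-223 of myeloid cells with 531 and 7579 reads. All 3 labels of red blood cells were higher, with 0.00166% and 0.0102%. Of the 13 neural and glial labels 12 were at least 2-fold higher, and miR-126 of the endothelium had 167 and 324 reads. In comparison, 84.3% of all 3090 labels with 10 reads or more had 2 times the control share or more in the blastema. The reverse was true of 1.84%. The counts of higher labels in these lists are thus close to the background, while the count of lower muscle labels is far from it. Many labels of these lists, as in muscle, are lettered copies of the same microRNA, so they are not independent of each other. With TMM, the number of labels above 0 was 13 of 13 for epithelium, 5 of 6 for leukocytes, 1 of 3 for red blood cells, 4 of 13 for neural and glial labels and 0 of 14 for muscle. The defining markers miR-1, miR-203, miR-223 and miR-124 had reads in both libraries, and their part in the ratios of miR-199 and miR-214 was not tested.

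Among the abundant labels other than the members, those with the log2 ratio closest to that of miR-199a were miR-139 (1.46), miR-92b (1.42) and miR-10b (1.47). Closest to miR-214 were miR-10 (1.28), miR-10c (1.23) and miR-34b (1.21). Likeness here is the distance between single log2 ratios over 2 libraries, and each of these intervals contained the ratio of the member.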

How the data were processed

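Small RNA of 1 control and 1 blastema library was sequenced. The authors trimmed reads with ShortRead, mapped them to mirBase 21 with Bowtie 1.1.2 allowing 2 mismatches, and deposited read counts per entry and per unmapped sequence, without normalization. Unmapped sequences were grouped by the authors into families at a Levenshtein distance of 4, after a stated minimum of more than 7 occurrences, although 23437 of the 59811 deposited sequences have at most 7 reads in each library. The deposited table also holds a normalized signal made by the authors, its log2 values and a log2 fold change, none of which was used.

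Counts were summed by label and divided by all known plus unmapped reads, with the unmapped counts as deposited and not halved. Halving them in the total was not tried, and leaving them out shifted every log2 ratio by 0.19. Log2 ratios had 0.5 read added to each count. Intervals (95%) were Wilson for shares and Poisson for ratios. A count of 0 was bounded by 3 counts. Alternatives were other library totals (known reads, the depth the study states, TMM, no muscle microRNAs), 5 reads added, the top entry, entries with at least 100 reads, and other assignments of arms. The sum over the 4 labels of miR-199, the bands of entries and the counts of substitutions were added after the data were seen. Members and lists were chosen with earlier results of these data known. The rule for named items took all labels, the 3 entries with the most reads per label and arm, unmapped families with at least 100 reads, listed markers and the 3 labels nearest in ratio; other names were picked with their values in view. The calculations were tested on simulated data. Scripts ran on Python 3.11.15 with NumPy 2.4.6, pandas 2.3.3, Matplotlib 3.10.9 and SciPy 1.17.1, and TMM came from edgeR 4.0.16 in R 4.3.3.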

Additional observations from a re-analysis of the deposited data

How the results depend on the processing

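Most values depended on the library total, which shifts every log2 ratio of blastema over control alike. For miR-199 as a whole the ratio of 1.41 became 1.60 with known reads, 0.79 with the stated depth, 0.016 without the muscle microRNAs and -0.73 with TMM, 1.62 for the top entry and 1.38 with unmapped families added. For miR-214 it was 1.46, 0.64, -0.13 and -0.87 with the same totals, and 0.75 for the top entry. TMM reversed the labels miR-199 (-0.90), miR-199a (-0.69), miR-199b (-0.70) and miR-199c (-1.06), and leaving out the muscle microRNAs reversed miR-199 (-0.16) and miR-199c (-0.32). The unmapped families resembling miR-199 gave 1.19 with known reads, 0.38 with the stated depth, -0.39 without the muscle microRNAs and -1.14 with TMM, and those resembling miR-214 gave 0.29, -0.48 and -1.23 with the last 3 of these. Changing the total shifts all labels by 1 amount, by construction.

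The log2 of 5p over 3p reads of miR-199 was -2.67 (control) and -2.59 (blastema) with entries of no named arm counted as 5p, -9.93 and -9.88 with them as 3p, and -9.39 and -9.37 over species with both arms. No 5p entry had 100 reads, so that alternative gave no value. With the top entry of each microRNA, the log2 of miR-199 over miR-214 was 6.71 (control) and 7.59 (blastema), and the difference 0.88 in place of 0.15, and the cause was not tested. Labels at least 2-fold higher numbered 2605 of the 3090 with at least 10 reads, but 1442 without the muscle microRNAs and 834 with TMM. With a minimum of 100 reads they numbered 444, of a smaller set of labels. With a minimum of 1000 reads they were 82.7% of 197 labels. In both directions, counts at another minimum are of another set of labels. Labels at least 2-fold lower numbered 57, and 103 with no minimum, 18 with at least 100 reads, 33 with 5 reads added, 17 at 4-fold, 90 with the stated depth, 236 without the muscle microRNAs and 558 with TMM. No paired analysis was possible because each condition has 1 library. Of the other alternatives, 27 stayed within the counting error or within 1.5 times a count. Depth limits all low counts, and a count of 0 is compatible with shares up to 2.38e-05% of the control and 3.01e-05% of the blastema reads.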
